A study of Ovis aries with 42 samples.

Results

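The genes described are 10 keratins of duct, liver and surface epithelia: KRT5, KRT7, KRT8, KRT14, KRT15, KRT17, KRT18, KRT19, KRT20 and KRT23. The set is a list of symbols, and all 10 were found among the 22981 genes of the liver table and the 29285 genes of the gallbladder table. In gallbladder 8 of them carried their symbol, and KRT14 and KRT19 were matched through their gene number. The tables name 42 numbered keratins in liver and 40 in gallbladder. RNA was measured in sheep of 2 genotypes, wild type (WT) and CF. The series title gives CF as CFTR-/-. CFTR is the epithelial anion channel lost in cystic fibrosis. The labels do not say how the allele was made, nor its background. Liver was sampled in both genotypes at 5 fetal stages, named for the gestation day (d50, d65, d80, d100, d120), and at the end of gestation, which the labels call term in WT and birth in CF. Gallbladder was sampled from WT at d100, d120 and birth and from CF at d80, d100 and d120. Each group held 2 libraries, 36 in all, made from pieces of frozen whole tissue.

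Keratins are the intermediate filament proteins of epithelial cells. Each filament pairs a type I keratin (here KRT14, KRT15, KRT17, KRT18, KRT19, KRT20 and KRT23) with a type II keratin (KRT5, KRT7 and KRT8). In mammalian liver, hepatocytes hold KRT8 and KRT18 almost alone, while bile duct cells add KRT7 and KRT19, and KRT19 marks the early hepatoblasts and ductal plate. KRT5, KRT14 and KRT15 belong to basal cells of layered epithelia, KRT17 to basal and wounded epithelium, KRT20 to gut lining, and KRT23 is induced in stressed liver epithelium of mouse and human.

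Column totals were 29705597 to 56808639 estimated counts in liver and 32374693 to 54443213 in gallbladder. Levels are given as counts-per-million values (CPM), scaled within a tissue by TMM factors of edgeR, and were not corrected for transcript length, so levels of different keratins are not compared. A gene is called where the adjusted p of edgeR's quasi-likelihood test, over all genes tested, is under 0.05. CFTR RNA did not check the labels. In liver both CF libraries were below both WT libraries at d65 (1.51 and 0.770 against 1.61 and 1.83 CPM, not called), and from d80 onward both were above. CFTR ran from 0.687 to 17.3 CPM in fetal CF liver and from 0.902 to 2.81 CPM in fetal WT liver, and from 38.4 to 42.2 CPM against 0.846 to 1.81 CPM at the end of gestation. In fetal gallbladder CFTR RNA was 18.0 to 117 CPM in CF and 7.13 to 11.5 CPM in WT. The same donor number stands under WT liver at d65 and under CF liver and gallbladder at d100. The labels do not tie the donors of CF gallbladder d100 to its 2 columns, whose names share 1 library name, so they may be runs of 1 library. In CF gallbladder d80 the libraries were the least alike of any pair (Spearman rho 0.904 across genes, against 0.934 to 0.983 in the other groups). The donor numbers of the WT gallbladder d100 libraries differ in their last letter alone, so both may come from 1 animal. Their counts had the lowest chi-square of any group, 14.9 per gene, which is still beyond sampling noise. By the stem of the donor number the 24 liver libraries form 18 units and the 12 gallbladder libraries 11. The labels do not say whether libraries of a group came from separate pregnancies or animals, so the p-values measure the spread between these libraries.

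In liver KRT7, the type II keratin of bile ducts, lay above WT in CF from d65 onward and was the member with the greatest genotype difference at the end of gestation. In WT fetal liver KRT7 was at 3.82 and 2.21 CPM at d50, 2.54 and 4.12 CPM at d65, 3.08 and 2.84 CPM at d80, 4.44 and 2.37 CPM at d100, and 4.89 and 8.90 CPM at d120. In CF it was at 2.30 and 2.35 CPM at d50, 12.4 and 8.53 CPM at d65, 18.6 and 27.5 CPM at d80, 19.9 and 7.47 CPM at d100, and 21.2 and 11.2 CPM at d120. The genotypes overlapped at d50, and at d65, d80, d100 and d120 both CF libraries lay above both WT libraries. Averaged over the 5 fetal stages, KRT7 was higher in CF by log2 1.49 ± 0.21 (SE), or 2.82-fold (edgeR adjusted p = 0.000518). This was 1 of 5 members tested, where 2.54% of all 16508 genes tested were called. KRT7 stayed called without any 1 library, with 1 unit per donor-number stem, and in the other settings tried (adjusted p at most 0.0295).

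**Figure D1:**
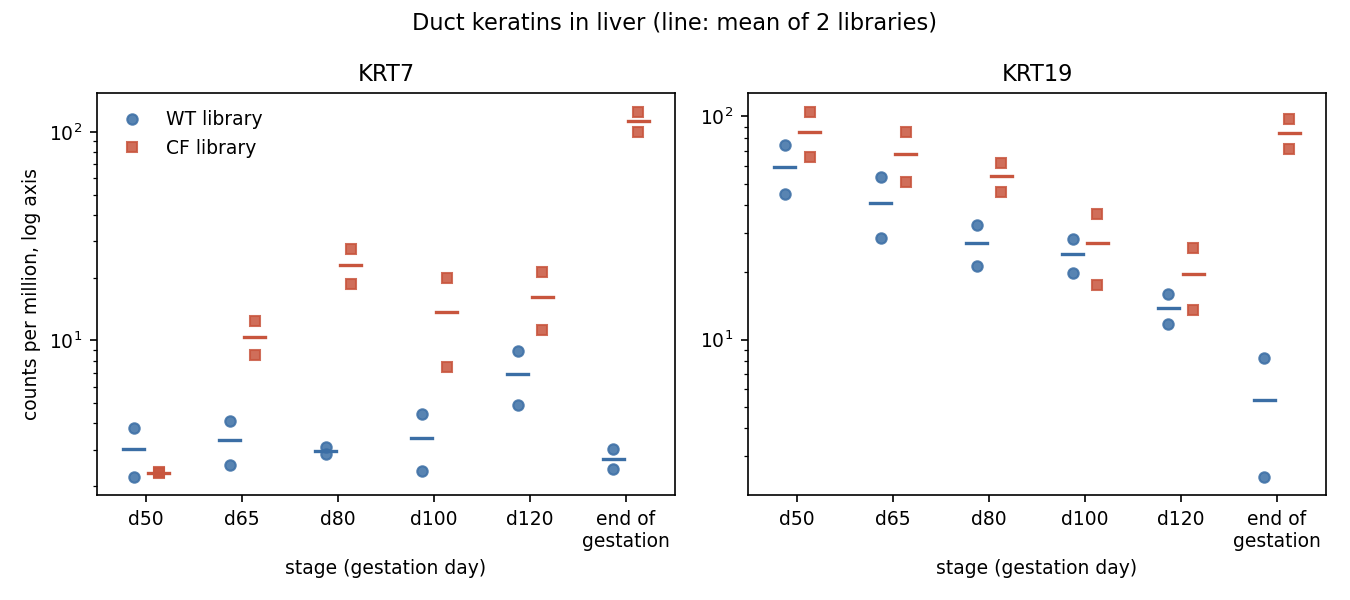
Levels of KRT7 and KRT19 in liver, in CPM on a log axis, by stage. Each point is 1 library (circles WT, squares CF) and each line the mean of 2. CF KRT7 lies above WT from d65, and both keratins stand apart by genotype at the end of gestation, where WT KRT19 is at 2.42 and 8.26 CPM and CF KRT19 at 71.8 and 97.4 CPM.

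Stage by stage KRT7 was called at d80 alone among the fetal stages, at log2 2.96 ± 0.48, or 7.78-fold (edgeR adjusted p = 0.0230). It was 1 of 5 members called there, where 0.0727% of all genes were called. Both WT d80 libraries share a donor-number stem, and so do both CF d80 libraries. The setting with 1 unit per stem was not run at single stages, so the d80 call was not checked that way. The call was lost without either WT d80 library or without CF d80 replicate 2 (adjusted p up to 0.277, log2 2.65 to 3.02). At d65 the difference was log2 1.65 ± 0.46 (edgeR adjusted p = 0.0673), at d100 log2 2.01 ± 0.46 (adjusted p = 0.314), and at d120 log2 1.23 ± 0.45 (adjusted p = 0.269). These missed the threshold with edgeR, although KRT7 was called by DESeq2 at d65 (adjusted p = 0.00852) and at d100 (adjusted p = 0.0118). No member was called by edgeR at d50, where 0% of all genes were called, at d65 (1.65%), at d100 (0.0424%) or at d120 (0.0242%). An unadjusted p under 0.05 was reached by 0 of 5 members at d50, 2 at d65, 1 at d100 and 1 at d120. Of all 16508 genes, 372 reached it at d50, 3100 at d65, 725 at d100 and 2358 at d120. DESeq2 called 0 members at d50 and d120, and limma called 0 at each of these 4 stages.

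At the end of gestation KRT7 was at 3.01 and 2.42 CPM in WT liver and at 125 and 100.2 CPM in CF liver. CF was higher by log2 5.37 ± 0.53, or 41.4-fold (edgeR adjusted p = 1.84e-06). KRT19, the type I keratin of ducts, was at 8.26 and 2.42 CPM in WT and at 97.4 and 71.8 CPM in CF. That is log2 3.98 ± 0.57, or 15.8-fold higher (edgeR adjusted p = 5.15e-05). The genotypes did not overlap for either gene, and both calls held without any 1 library. These were 2 of 5 members called, both higher, at a stage where 33.7% of all genes were called in either direction. The WT libraries are labelled term and the CF libraries birth. Only the titles of the WT pair give a sex, female and male. The library names of that pair also lie apart from the run of the other RNA libraries. Genotype cannot be told apart from these differences at this stage.

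KRT7 and KRT19 followed different courses in fetal liver. KRT19 fell with age in both genotypes. In WT it was at 44.7 and 74.6 CPM at d50, 28.6 and 53.3 CPM at d65, 32.7 and 21.3 CPM at d80, 28.2 and 19.9 CPM at d100, and 11.7 and 16.0 CPM at d120. In CF it was at 105 and 65.5 CPM at d50, 84.8 and 50.6 CPM at d65, 45.6 and 62.1 CPM at d80, 36.6 and 17.5 CPM at d100, and 25.7 and 13.6 CPM at d120. The genotypes overlapped at each of these stages except d80, where CF was above WT. Without TMM factors CF lay above WT at d50, d65, d80 and d120, and the genotypes overlapped at d100 alone. The fetal mean difference was log2 0.58 ± 0.23 (edgeR adjusted p = 0.209). Along the line fitted from d50 to d120, WT KRT19 fell by 1.97 ± 0.47 on the log2 scale (edgeR adjusted p = 0.0187) and CF KRT19 fell by 2.24 ± 0.47 (adjusted p = 0.00465). The WT call was lost when a WT d120 library or WT d50 replicate 2 was left out (adjusted p up to 0.140), and the CF call without CF d120 replicate 2 (adjusted p = 0.0587).

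KRT7 rose over the same span in CF, by log2 2.23 ± 0.41 (edgeR adjusted p = 0.00177), and the call held without any 1 library. Over that span 9 of 20 bile duct markers other than keratins were also called higher in CF and none lower (median log2 1.2, against 0.0635 over all genes, of which 16.5% were called). CFTR, the annexin ANXA4 and the surface protein CD24 led them, at log2 3.72 ± 0.51, 1.73 ± 0.25 and 2.08 ± 0.41. Of 5 general epithelial genes 2 were called higher, and in WT none of the 20 duct markers was called. The difference between the genotypes' changes was called for 0 of the 20 duct markers and 0 of the 5 epithelial genes. The part of these markers in the KRT7 change was not tested. In WT the change of KRT7 was log2 1.02 ± 0.40 (adjusted p = 0.177). The changes of the genotypes were not shown to differ: the difference was log2 1.21 ± 0.57 (edgeR adjusted p = 0.374). Of 5 members tested, 1 was called for the WT change (4.8% of all genes), 3 for the CF change (16.5%), and 0 for their difference (0.00606%). For that difference 1 member had an unadjusted p under 0.05, as did 2174 of all 16508 genes, and DESeq2 and limma called 0 members. The third member called in CF was KRT18, which fell by 1.19 ± 0.37 on the log2 scale (edgeR adjusted p = 0.0361). That call was lost without any 1 of 6 libraries (adjusted p 0.0601 to 0.171).

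The ratio of KRT19 to KRT7 counts shows these courses in a single number that needs no scaling between libraries. It was 11.7 to 33.5 in WT d50 liver and 27.9 to 45.7 in CF d50 liver. At d80 it was 7.50 to 10.6 in WT and 2.26 to 2.45 in CF, and at d120 it was 1.79 to 2.41 in WT and 1.21 to 1.22 in CF. At the end of gestation it was 0.995 to 2.75 in WT and 0.717 to 0.781 in CF. CF lay below WT at each stage from d65, and overlapped WT at d50.

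From d120 to the end of gestation the duct keratins parted by genotype. In WT both end libraries lay below both d120 libraries for KRT7 and for KRT19, and in CF both lay above. The difference between the genotypes' changes was log2 4.14 ± 0.65 for KRT7 (edgeR adjusted p = 0.000376) and log2 3.48 ± 0.74 for KRT19 (adjusted p = 0.00302). These were 2 of 5 members tested, where 21.1% of all genes were called. This contrast was added after the levels had been seen, and both calls held without any 1 library. It shares its d120 and end libraries with the contrasts above. As there, genotype cannot be told apart from the differing labels and library names of the end groups.

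KRT8 and KRT18, the filament pair of hepatocytes, were not called by genotype at any liver stage. In fetal WT liver KRT8 ran from 413 to 543 CPM with a median of 436 CPM over 10 libraries, and in fetal CF liver from 413 to 727 CPM with a median of 499.7 CPM. KRT18 ran from 154 to 369 CPM in WT with a median of 228 CPM, and from 167 to 656 CPM in CF with a median of 344 CPM. The ranges overlapped, and 4 of 10 CF libraries lay above all WT libraries for each gene. CF KRT18 was above WT without overlap at d65 (483 and 656 CPM against 226 and 344 CPM), at d80 and at d100, and CF KRT8 at d80 and at d100. Without TMM factors KRT8 overlapped at d100 (386 and 429 CPM in WT, 502 and 402 CPM in CF), and CF lay above WT at d120. The fetal mean differences were log2 0.20 ± 0.13 for KRT8 (edgeR adjusted p = 0.491) and log2 0.49 ± 0.18 for KRT18 (adjusted p = 0.185).

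At the end of gestation KRT8 was at 251 and 234 CPM in WT and at 564 and 253 CPM in CF, and KRT18 at 169 and 140 CPM in WT and at 410 and 128 CPM in CF. The CF libraries differed from each other: replicate 1 was high, and replicate 2 was near the WT level after TMM scaling. Without TMM factors CF replicate 2 was above both WT libraries, with KRT8 at 516 against 248 and 216 CPM and KRT18 at 262 against 167 and 129 CPM. The differences were log2 0.75 ± 0.29 for KRT8 (edgeR adjusted p = 0.0574) and log2 0.80 ± 0.41 for KRT18 (adjusted p = 0.141). Without CF replicate 2 both were called (KRT8 log2 1.17, adjusted p = 0.00275; KRT18 log2 1.36, adjusted p = 0.00802). Without CF replicate 1 KRT18 was at log2 -0.27. KRT8 was also called by DESeq2 (adjusted p = 0.0191) and by edgeR with DESeq2 size factors (adjusted p = 0.0481). KRT7 and KRT19 were high in both CF libraries.

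**Figure D2:**
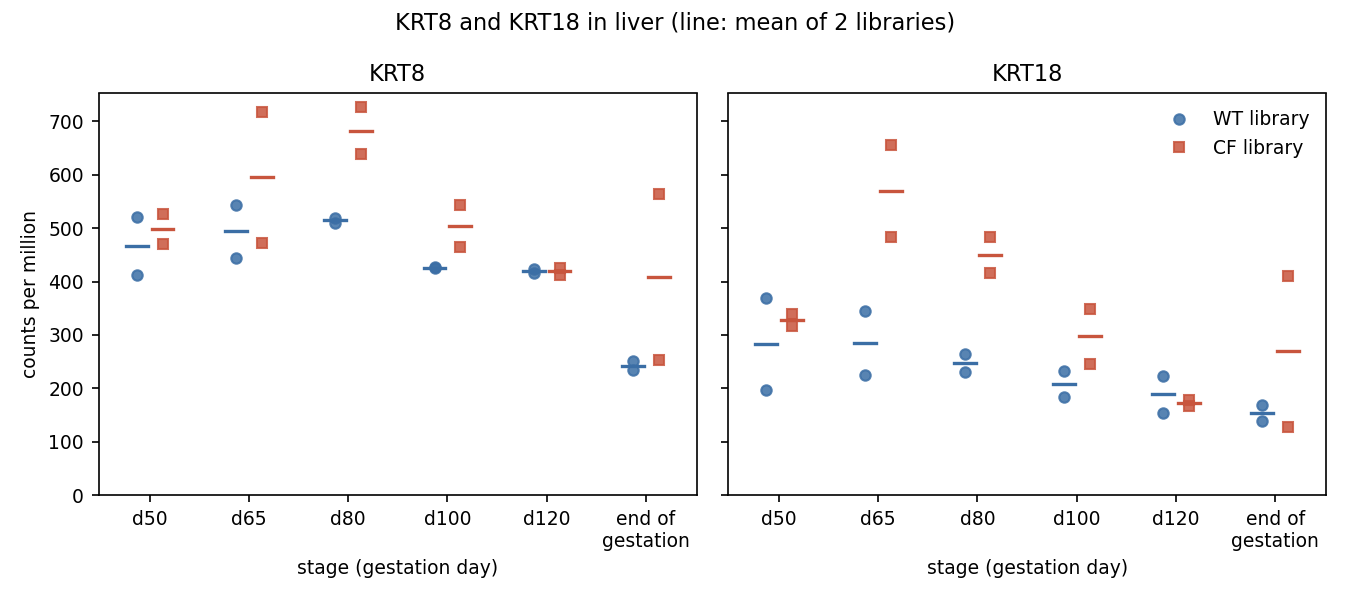
Levels of KRT8 and KRT18 in liver, in CPM from 0, by stage, with 1 point per library (circles WT, squares CF) and a line at the mean of 2. The genotypes overlap at d50 and d120, CF KRT18 lies above WT at d65, d80 and d100, and the CF libraries at the end of gestation lie far apart.

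The other keratins were scarce in liver. KRT5, the basal-cell keratin, was detected in 23 of 24 libraries at no more than 2.05 CPM. It was at 1.91 and 2.05 CPM in CF liver at the end of gestation and at 0.742 and 0.786 CPM in WT, without overlap, yet not called (log2 1.37 ± 1.18, edgeR adjusted p = 0.396). KRT14, KRT15, KRT17, KRT20 and KRT23 had no more than 13.1 estimated counts in any liver library and did not pass the filter on low counts. KRT14 had a count in 9 of 24 libraries, KRT15 in 11, KRT17 in 8, KRT20 in 3 and KRT23 in 2. These 5 were not tested by genotype in liver.

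Markers of other cell types were called beside the liver keratins at the end of gestation, where 33.7% of all genes were called. Of 20 bile duct markers other than keratins, 9 were called higher and 3 lower in CF (median log2 2.23, against 0.0352 over all genes), with EPCAM at log2 3.92 ± 0.56 and SOX9 at 3.93 ± 0.47. Their summed level was 619 to 805 CPM in CF and 650 to 688 CPM in WT, and none was at 0. Of 12 hepatocyte genes, 9 were called lower and none higher (median log2 -1.41), with sums of 27777 to 116230 CPM in CF and 175446 to 180187 CPM in WT. Replicate 2 of CF had the lowest hepatocyte share of any liver library, 5.66% of its counts, against 14.0 to 23.5% in the others. Erythroid genes were called higher in 7 of 7, smooth muscle genes in 4 of 7 and general epithelial genes in 2 of 5, and none of 7 mesothelial, 3 basal or 6 intestinal genes tested was called. The part of these markers in the keratin result was not tested. In bulk tissue more duct cells and more keratin RNA per duct cell cannot be told apart. TMM factors were 1.48 and 2.04 in the CF libraries and 0.920 and 0.988 in WT at this stage, so CPM without them would set CF higher by a further log2 0.863 for every gene.

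For the fetal mean none of the 20 duct markers was called (median log2 0.183, against -0.0468 over all genes). At d80, where KRT7 was called, EPCAM was at log2 0.80 ± 0.50 and SOX9 at 0.83 ± 0.42, and neither was called. At d65 EPCAM was at log2 -1.30 ± 0.51 (edgeR adjusted p = 0.180) beside KRT7 at 1.65. KRT7 counts were 7.52 to 7.88 per EPCAM count in CF d65 liver and 0.837 to 1.12 in WT. At d80 this ratio was 5.06 to 7.67 in CF and 0.848 to 3.70 in WT. At d100 it was 2.30 to 6.83 in CF and 1.06 to 2.27 in WT. The genotypes overlapped at d50, and again at d120, with 3.13 to 3.49 in CF and 3.05 to 3.34 in WT. Hepatocyte genes had a median of log2 0.00396 for the fetal mean, with 0 of 12 called. Among the other marker lists COL17A1, a basal marker, and 1 of 6 intestinal genes were lower, and no erythroid, smooth muscle, mesothelial or general epithelial gene was called.

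In gallbladder KRT18 and KRT19 were lower in CF for the mean of d100 and d120 and at d120. KRT19 was at 699 and 613 CPM in WT d100, 1616 and 1717 CPM in WT d120, and 512 and 528 CPM in WT at birth. In CF it was at 1332 and 922 CPM at d80, 671 and 473 CPM at d100, and 224 and 163 CPM at d120. WT and CF overlapped at d100 and lay far apart at d120. WT was highest at d120 and CF at d80, a stage without WT libraries, and birth has no CF libraries. Within each genotype, CF KRT19 was higher at d100 than at d120, and WT KRT19 was higher at d120 than at d100. At d120 KRT19 was lower in CF by 8.61-fold, a log2 change of -3.11 ± 0.42 (edgeR adjusted p = 0.00945). This call held without any 1 library and in the other settings tried (adjusted p at most 0.0453).

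KRT18 was at 411 and 348 CPM in WT d100, 1096 and 1019 CPM in WT d120 and 178 and 317 CPM in WT at birth. In CF it was at 877 and 372 CPM at d80, 223 and 142 CPM at d100, and 159 and 150 CPM at d120. CF lay below WT at both d100 and d120 without overlap. Without TMM factors the d100 libraries overlapped, at 286 and 253 CPM in WT and 282 and 181 CPM in CF. The d120 difference was log2 -2.77 ± 0.51, or 6.84-fold lower (edgeR adjusted p = 0.0163), a call lost without WT replicate 1 or either CF library (adjusted p 0.0592 to 0.0806). No KRT18 value above 0 in gallbladder was whole within 0.001, against 87.8% of all values above 0. Reads shared with a near-identical copy would give such values, so the KRT18 level is uncertain to that extent, which was not tested.

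KRT8, the partner of KRT18 and KRT19, was at 1361 and 2229 CPM in WT d120 and at 745 and 491 CPM in CF d120, without overlap. The difference was log2 -1.54 ± 0.47, or 2.91-fold lower (edgeR adjusted p = 0.0467). The call was lost without any 1 of the 4 libraries (adjusted p 0.0847 to 0.167) and without a filter on low counts (adjusted p = 0.0583). At d100 KRT8 was at 1095 and 1010 CPM in WT and 1101 and 782 CPM in CF, which overlapped. KRT7 was at 126 and 109 CPM in WT d100, 95.9 and 213 CPM in WT d120, 113 and 87.7 CPM in CF d100 and 105 and 68.3 CPM in CF d120, with overlap at both stages. It was not called (d120 log2 -0.84 ± 0.42, edgeR adjusted p = 0.160).

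At d120, 3 of 10 members were called, all lower, where 22.7% of all 18717 genes tested were called. At d100 none was called with edgeR, where 6.53% of all genes were called. With the CF d100 columns summed as 1 unit 0 genes were called at d100, and without any 1 library 0 to 1. At d100, 1 member had an unadjusted p under 0.05, KRT5, which DESeq2 called and limma did not. Of all 18717 genes, 6167 had an unadjusted p under 0.05 there, and DESeq2 called 5236. For the mean over d100 and d120, 3 of 10 members were called lower, where 43.7% of all genes were called. These were KRT19 at log2 -1.65 ± 0.28 (edgeR adjusted p = 0.00542), KRT18 at -1.92 ± 0.35 (adjusted p = 0.00634) and KRT5 at -4.21 ± 1.12 (adjusted p = 0.0184). KRT19 lost this call in an additive model of genotype and stage (adjusted p = 0.0752). The mean is built from the same 8 libraries as the contrasts at each stage. The change from d100 to d120 had opposite signs in the genotypes for KRT19, but its difference was not called (log2 -2.91 ± 0.56, edgeR adjusted p = 0.168, with 0% of all genes called). DESeq2 called it (adjusted p = 3.18e-08) among 1025 genes, and limma called no member. An unadjusted p under 0.05 was reached by 3 of 10 members and by 2470 of all 18717 genes.

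**Figure D3:**
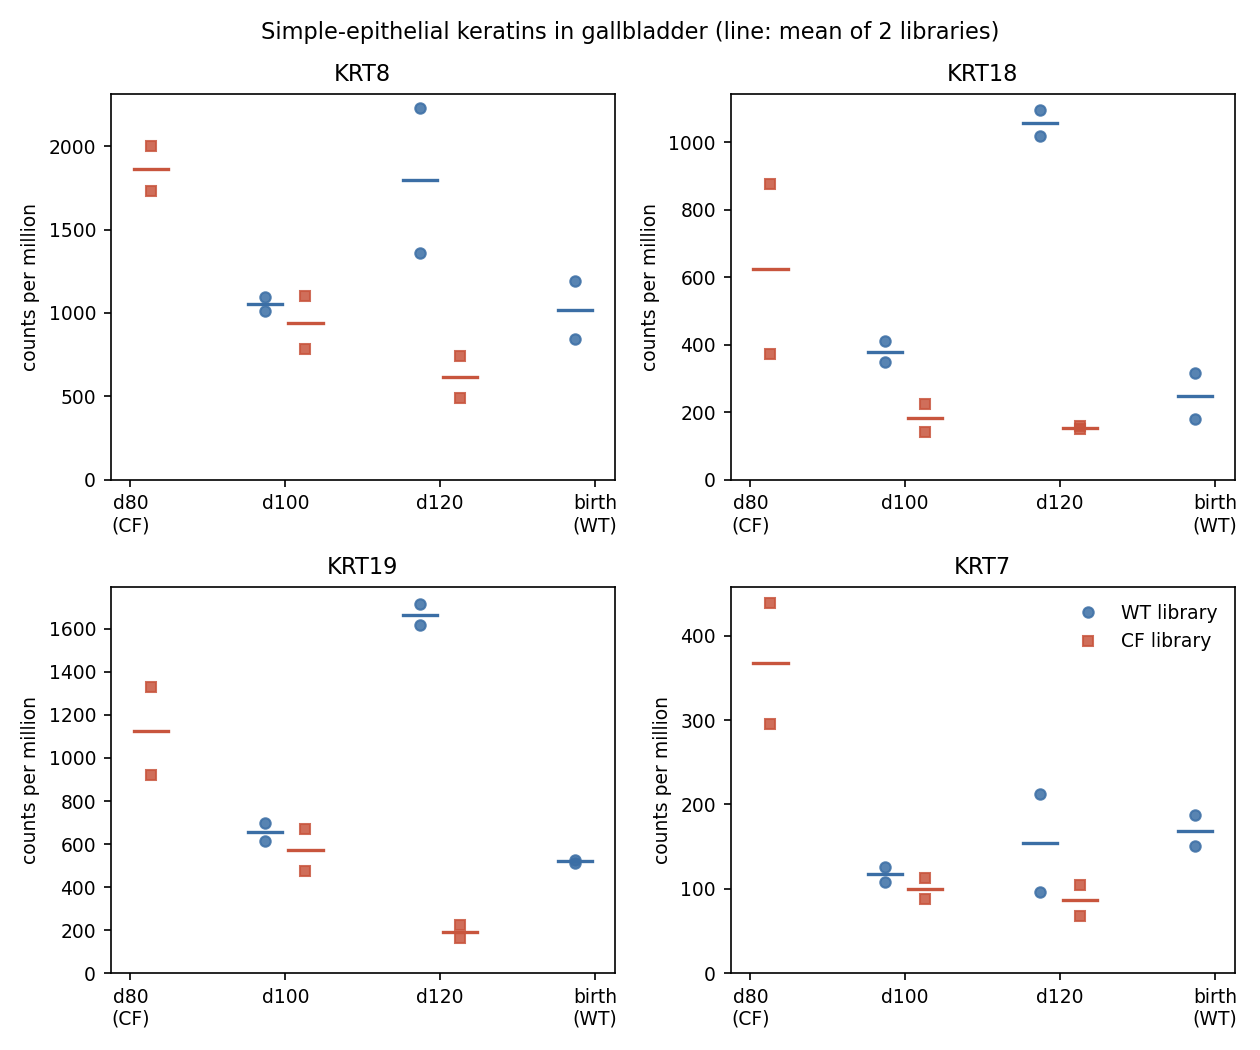
Levels of KRT8, KRT18, KRT19 and KRT7 in gallbladder, in CPM from 0, by stage, with 1 point per library (circles WT, squares CF) and a line at the mean of 2. WT KRT19 is at 1616 and 1717 CPM at d120 and CF KRT19 at 224 and 163 CPM, while KRT7 overlaps between genotypes at d100 and d120.

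**Figure D4:**
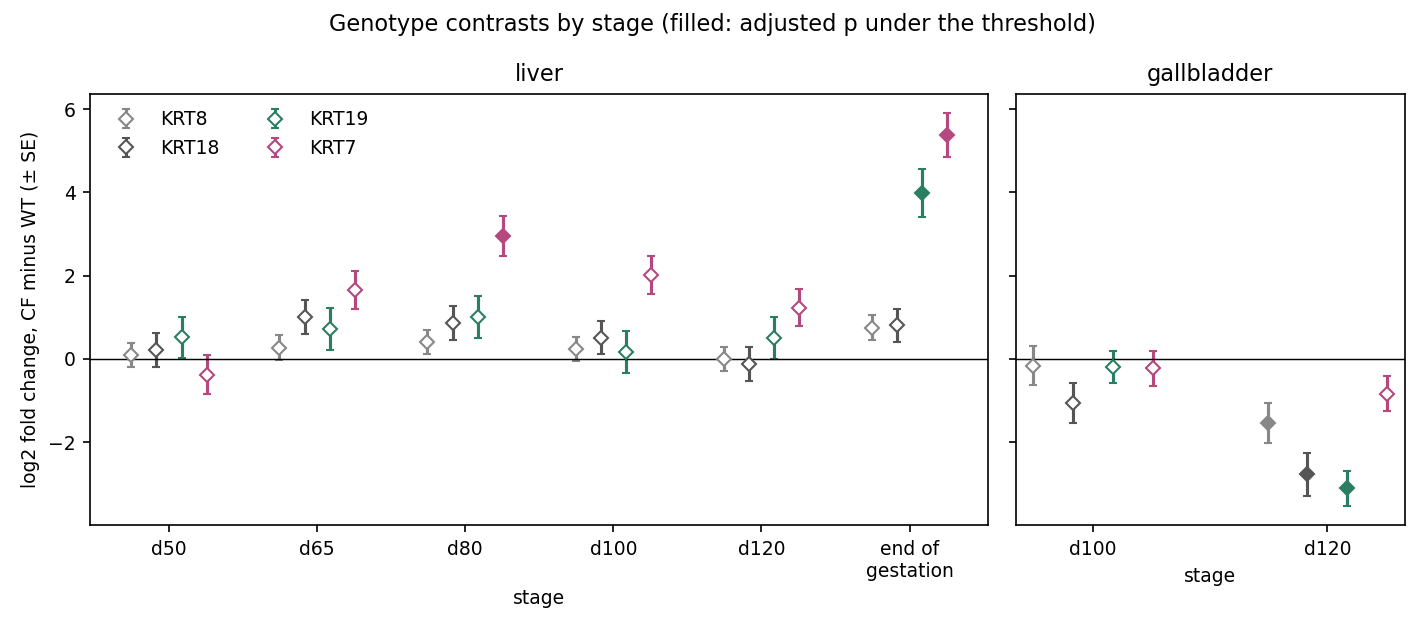
Log2 fold change of CF minus WT (± SE) for KRT8, KRT18, KRT19 and KRT7 at each stage held by both genotypes, in liver and gallbladder. Filled points passed the adjusted p threshold of 0.05: KRT7 at d80 and KRT7 and KRT19 at the end of gestation lie above 0 in liver, and KRT8, KRT18 and KRT19 lie below 0 in gallbladder at d120.

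Scaling weighs on the gallbladder values. TMM factors were 0.697 and 0.726 in WT d100, 1.27 and 1.28 in CF d100, 0.679 and 0.836 in WT d120 and 1.18 and 1.28 in CF d120. Without them every gene would stand higher in CF by log2 0.839 at d100 and 0.708 at d120. KRT7, KRT8, KRT17 and KRT19 differed by log2 -0.23 to -0.16 at d100, less than this shift and less than their SE, so no direction is given for them at d100. At d120 KRT18 and KRT19 kept CF below WT without overlap on both scales, and KRT8 overlapped.

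Hepatocyte RNA differed between the gallbladder libraries and stands beside the KRT8 and KRT18 results, since hepatocytes hold both keratins. The 12 hepatocyte genes took 13.4 and 14.0% of counts in WT d100, 8.39 and 6.03% in WT d120 and 6.39 and 2.57% in WT at birth. In CF they took 0.535 and 0.610% at d80, 0.548 and 0.418% at d100, and 0.216 and 6.98% at d120. The share was higher in WT than in CF at d100, and the genotypes overlapped at d120, where CF replicate 2 held 6.98%. The part of hepatocyte RNA in the keratin values was not tested.

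**Figure D5:**
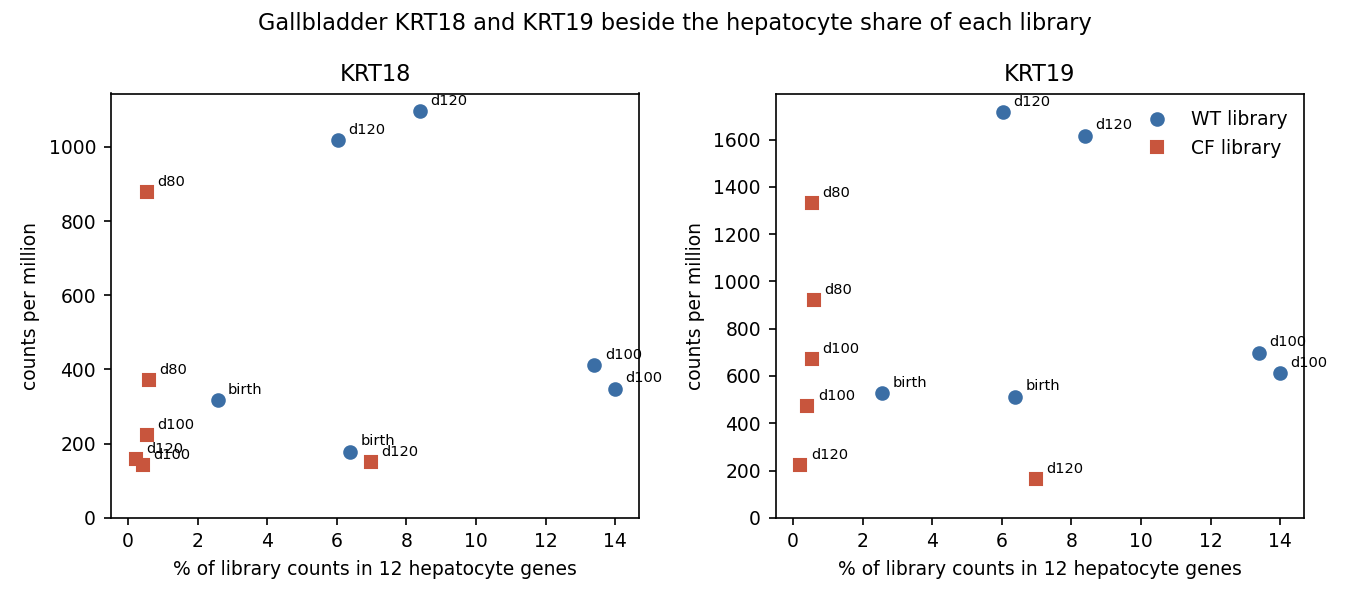
KRT18 and KRT19 in each gallbladder library, in CPM from 0, against the percent of the library's counts in 12 hepatocyte genes, with the stage beside each point (circles WT, squares CF). The CF d120 library with 6.98% hepatocyte counts lies at 150 CPM of KRT18 and 163 CPM of KRT19, and the WT d120 libraries with 8.39 and 6.03% lie at 1019 to 1717 CPM.

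Markers of cell types were called in both directions beside KRT18 and KRT19, in a contrast where 43.7% of all genes were called. For the gallbladder mean, 8 of 20 duct markers were called higher and 2 lower in CF (median log2 1.13, against 0.157 over all genes). EPCAM was at log2 1.73 ± 0.58 (edgeR adjusted p = 0.0385) and SOX9 at 1.48 ± 0.46 (adjusted p = 0.0305). The 2 lower were TFF2, a secreted mucosal peptide, at log2 -3.68 ± 0.59, and CLDN4, a tight junction protein, at -1.16 ± 0.24. Their sums were 1431 to 1442 CPM in WT d100, 4756 to 5062 CPM in CF d100, 1462 to 3263 CPM in WT d120 and 2261 to 5766 CPM in CF d120, and none was at 0. Smooth muscle genes were called lower in 3 of 7, with sums of 4101 to 4115 CPM in WT d120 and 407 to 1807 CPM in CF d120. Mesothelial genes were called higher in 5 of 8, basal genes higher in 2 and lower in 1 of 5, general epithelial genes higher in 1 of 5, erythroid genes lower in 3 of 5, hepatocyte genes lower in 3 of 12 and intestinal genes in 0 of 5. The part of these cell types in the keratin values was not tested. KRT7 counts per EPCAM count were 2.24 to 3.26 in WT d120 and 0.366 to 1.11 in CF d120.

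KRT5 and KRT17 were present in fetal gallbladder. KRT5 was at 11.3 and 12.6 CPM in WT d100, 4.87 and 27.3 CPM in WT d120 and 0.834 and 0.408 CPM in WT at birth. In CF it was at 3.58 and 0.184 CPM at d80, 0.488 and 0.196 CPM at d100, and 0.222 and 3.0 CPM at d120. CF was below WT at both matched stages without overlap, although the d120 libraries overlapped without TMM factors. The mean call was lost without any 1 of 5 libraries (log2 -4.61 to -3.76). It was also lost with 1 unit per donor-number stem (log2 -4.23) and with the CF d100 columns summed as 1 unit (log2 -4.20). Markers of basal and layered epithelium did not all go the way of KRT5. Of 8 such markers 5 could be tested, and for the mean PKP1, a desmosomal plaque protein (log2 4.92 ± 1.63), and TRIM29 (log2 3.08 ± 1.08) were called higher in CF and COL17A1 lower. Their summed level was 22.4 to 22.7 CPM in WT d100, 32.6 to 37.0 CPM in CF d100, 15.9 to 27.1 CPM in WT d120 and 8.97 to 26.5 CPM in CF d120. DSG3 and IVL had no count in any d100 or d120 library, and TP63, the transcription factor of basal cells, had no more than 8 counts in any of these. At birth TP63 had 25 and 3 counts in WT.

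KRT17 was at 25.3 and 22.8 CPM in WT d100, 56.9 and 2.50 CPM in WT d120, and had no count in either WT library at birth. In CF it was at 18.3 and 78.3 CPM at d80, 24.3 and 18.5 CPM at d100, and 0.610 and 4.01 CPM at d120. Fetal WT thus stood at least 786-fold above the floor of 3 counts over the birth group at d100. The d120 libraries differed too widely for a bound. From the fetal stages to birth in WT, 2 of 10 members were called, both lower, where 27.1% of all genes were called. In the same contrast 5 of 5 erythroid genes were called lower, and 9 of 20 duct markers higher and none lower (median log2 1.46, against 0.133 over all genes). Their part in the keratin values was not tested. The keratins called were KRT17 (edgeR adjusted p = 0.0164) and KRT18 at log2 -1.36 ± 0.44 (adjusted p = 0.0495). KRT17 lost its call without either birth or either d100 library (adjusted p up to 0.109), although it had no count in either birth library. KRT18 lost it without any 1 of the 6 (adjusted p up to 0.294, log2 -1.82 to -0.99).

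KRT14, KRT15, KRT20 and KRT23 reached no more than 4.79 CPM in gallbladder. KRT14 reached 1.46 CPM in CF d80 replicate 1 and stayed at 0.240 CPM or less elsewhere. KRT15 ran from 0.289 to 2.34 CPM in 12 of 12 libraries, with the lowest values in CF d120 (0.333 and 0.289 CPM) and the highest in CF d80 (2.34 and 1.51 CPM). KRT20, the gut keratin, did not exceed 1.01 CPM. KRT23 had a count in 11 of 12 libraries, with a median of 2.46 CPM. None of the 4 was called in any gallbladder contrast with edgeR and all libraries.

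In CF gallbladder 8 of 10 members had a lower mean after d80, with KRT7 at 439 and 296 CPM at d80 and at 68.3 to 113 CPM later, without overlap. None passed the test with edgeR, where 0.00534% of all genes were called (KRT7 log2 -1.98 ± 0.35, adjusted p = 0.208). At an unadjusted p under 0.05 there were 7 members, and 3137 of all 18717 genes. DESeq2 called 5 members and 836 genes, and limma called 0 members. With CF d80 replicate 2 left out, so that replicate 1 alone stands for d80, 6 members and 6697 genes were called, and without any 1 of the other 5 libraries no member was called.

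The keratins differed in how they moved with each other. In liver KRT8 and KRT18 had the highest rank correlation of any gene with each other over the 24 libraries (Spearman rho 0.921). They are neighbours in the sheep reference gene table. KRT7 was not tied to the other members (rho 0.131 to 0.190 with KRT8, KRT18 and KRT19), and its nearest genes were JAG1 (rho 0.890), a Notch ligand known in bile duct formation, AGR2 (0.867), a secretory-pathway protein of mucous epithelia, and PPIL6 (0.862). The nearest genes of KRT19 in liver were IFT46 (0.934), BOD1 (0.855) and PPARG (0.844). In gallbladder KRT8 and KRT19 moved together (rho 0.930 over 12 libraries), and the nearest genes were B4GALNT4 for KRT8 (0.979), MFSD5 for KRT18 (0.986), CENPV for KRT19 (0.972) and ARPC2 for KRT7 (0.944). These coefficients describe libraries that share stages, genotypes and tissue makeup.

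KRT18 per KRT8 count was 0.371 to 1.02 in liver and 0.181 to 0.806 in gallbladder, so the tissues overlapped. In gallbladder it was 0.345 to 0.375 in WT d100 and 0.181 to 0.202 in CF d100, and 0.457 to 0.806 in WT d120 and 0.214 to 0.305 in CF d120, so CF lay below WT at both stages. In liver at d65 it was 0.507 to 0.634 in WT and 0.914 to 1.02 in CF, and at d80 it was 0.446 to 0.518 in WT and 0.572 to 0.758 in CF, so CF lay above. At the other 4 liver stages the genotypes overlapped. KRT7, KRT8, KRT18 and KRT19 made up at least 97.5% of the counts of the 10 keratins in every library.

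Partners of keratins were measured too. Of 24 desmosome and plakin genes, which anchor keratin filaments to junctions, 19 were tested in liver and 21 in gallbladder. At the end of gestation in liver 4 were higher and 3 lower, beside 33.7% of all genes called, among them PKP3, a desmosomal plaque protein, at log2 4.62 ± 0.82, DST, a plakin, at 1.59 ± 0.31, and DSC2, a desmosomal cadherin, at -1.98 ± 0.44. For the gallbladder mean 12 were higher and 2 lower, beside 43.7% of all genes called (median log2 1.3, against 0.157 over all genes), with DST at log2 1.72 ± 0.24 and COL17A1, a hemidesmosome collagen, at -2.21 ± 0.44. For the liver fetal mean 1 of 19 was called, COL17A1, lower at log2 -0.99 ± 0.20. Of 13 other intermediate filament genes, 4 were higher at the end of gestation in liver and none lower, again beside 33.7% of all genes, led by LMNA, a nuclear lamin (log2 2.13 ± 0.24), NES (3.88 ± 0.44) and VIM, the filament of mesenchymal cells (2.91 ± 0.46). Of the other numbered keratins 10 of 32 were tested in liver and 7 of 30 in gallbladder. In liver at the end of gestation 1 was higher and 1 lower. KRT16, a keratin of wounded epithelium, had 0 and 0.903 counts in WT and 64.1 and 68.3 counts in CF (edgeR adjusted p = 0.0356). KRT222 had 81.0 and 37.1 counts in WT and 5.68 and 0 counts in CF (log2 -4.58 ± 0.87, edgeR adjusted p = 0.000617). For the gallbladder mean 1 was higher, KRT80, with 0 to 7 counts in WT and 132 to 402 counts in CF at d100 and d120. KRT80 also had 217 and 225 counts in WT at birth, within that CF range, and 10 and 434 counts in CF d80. The 3 that were lower included KRT24 at log2 -2.90 ± 0.58.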

How the data were processed

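Whole frozen liver (24 libraries) and gallbladder (12) were extracted with TRIzol per the labels' protocols. The series' design text speaks of gallbladder epithelial cells, while the protocol describes excised tissue. Each deposited table holds estimated counts by gene. The liver table's name mentions TPM, but its column totals differ as counts do. Per the submitters' processing notes, which give no roles, DESeq2, limma, edgeR, Salmon (1.9.0, 1.10.1) and STAR 2.7.9a were used. Positions are left out because the genome build is not given in the sources used here. Locus numbers were given symbols from the ARS-UI_Ramb_v3.0 gene table (127 in liver, 508 in gallbladder).

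Counts were rounded and each tissue was fitted alone in edgeR 4.0.16 (R 4.3.3), with TMM factors, filterByExpr, 1 mean per genotype and stage, and two-sided quasi-likelihood tests with Benjamini-Hochberg adjustment over all genes tested (16508 in liver, 18717 in gallbladder). Of the 10 keratins 5 passed the filter in liver and 10 in gallbladder. The fetal change is linear in gestation day over 70 days. The fit was also run on simulated counts, drawn as independent libraries from 1 mean per gene, with set changes in CF. These held no stage differences and no shared donors, so they do not check the calls for either. Alternatives were DESeq2 1.42.0, its size factors, limma 3.58.1 on log2 CPM (prior count 2), no filter, an additive model, 1 unit per donor-number stem and each library left out. The additive model and the stem setting were run for the liver fetal mean and the gallbladder mean alone. Libraries were left out only for contrasts that use their group. A floor is 3 counts over a group and covers counting error only.

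The keratins and the gene lists were chosen with earlier results of these data known. Each keratin is named wherever measured. From each list (bile duct, hepatocyte, mesothelial, basal, intestinal, smooth muscle, erythroid and general epithelial markers, desmosome and plakin genes, other intermediate filaments and other keratins) counts are given, and by name at most 3 called members per contrast, those with the smallest p. Outside this rule stand EPCAM, SOX9 and CFTR, given as references, and TP63, DSG3 and IVL, chosen after their values were seen. Likeness is the Spearman rho of log2 CPM over all libraries of a tissue. The 6 chromatin accessibility libraries are not analysed here.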

Additional observations from a re-analysis of the deposited data

Results flagged for a closer look

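From d120 to the end of gestation the liver levels of KRT7 and KRT19 parted: both WT end libraries lay below both at d120 and both CF end libraries above. The difference between these changes was tested, although genotype cannot be told apart from the labels term in WT and birth in CF. It was log2 4.14 for KRT7 (edgeR adjusted p = 0.000376) and log2 3.48 for KRT19 (adjusted p = 0.00302).

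From d100 to d120 in gallbladder, both WT libraries were higher at d120 and both CF libraries lower, for KRT8 and for KRT19. The difference between the genotypes' changes was log2 -1.38 for KRT8 (edgeR adjusted p = 0.410) and log2 -2.91 for KRT19 (adjusted p = 0.168), so neither passed the test.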

How the results depend on the processing

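No paired analysis was possible because the labels give no replicate numbers shared between genotypes. Composition per length was not run for want of lengths, nor the KRT5 to KRT14 ratio, since KRT14 was at 0 in many libraries. With 2 libraries a group, leaving 1 out assumes that the other varies like the rest. Of 1347 alternatives over 115 keratin results, 1218 kept direction and call, 34 gained a call, 40 lost it and 55, over 32 results, changed sign. None of the 55 was called with all libraries or under the alternative. Without TMM factors 36 of 180 group levels moved by more than the spread, and 8 of 80 genotype directions flipped. The causes were not tested.

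Only counts that moved by over 1.5 times are given here. Genes called with DESeq2 in liver were 898 for the fetal mean, 27, 1234, 221, 47 and 310 at the fetal stages in order of age, 1510 for the WT change and 178 for the difference of changes. In gallbladder they were 5236 at d100, 7856 at d120, 8159 for WT birth, 836 for CF after d80 and 1025 for the difference of changes. Keratins called with DESeq2, where the count moved that far, were 1 at liver d65 and 1 at d100, and in gallbladder 1 at d100, 5 at d120, 4 for WT birth, 5 for CF after d80 and 1 for the difference of changes. Without the filter, liver genes called were 6, 546, 39, 13 and 41 at the fetal stages in order of age (with 1 keratin at d65) and 5 for the difference of changes, and 1 keratin was called for WT gallbladder birth. With limma they were 39 at d80, 13 at d100 and 17 at d120, in gallbladder 1927 at d100 and 1 for the difference of changes, and 4 keratins for WT birth. With 1 unit per donor-number stem 78 genes were called for the liver fetal mean and 2983 for the gallbladder mean. With the CF d100 columns summed the counts were 3734 for the gallbladder mean, 0 at d100 and 0 for CF after d80.

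Leaving out 1 library gave these ranges of genes called in liver: 272 to 458 for the fetal mean, 1 to 8, 35 to 806, 2 to 18, 2 to 2 and 0 to 1 at the fetal stages in order of age, 3536 to 5658 at the end of gestation, 308 to 923 for the WT change, 672 to 2789 for the CF change, 0 to 4 for their difference and 2016 to 3976 for d120 to the end. In gallbladder they were 2500 to 8004 for the mean, 0 to 1 at d100, 252 to 3977 at d120, 41 to 5695 for WT birth, 0 to 6697 for CF after d80 and 0 to 616 for the difference of changes. Keratins called ran from 0 to 1 at liver d80, 2 to 4 at the end, 0 to 1 for the WT change, 1 to 3 for the CF change and 2 to 4 for d120 to the end. In gallbladder they ran from 2 to 5 for the mean, 1 to 4 at d120, 0 to 2 for WT birth and 0 to 6 for CF after d80.

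The sign changed with limma for KRT5 in liver (log2 -0.19 for the fetal mean, -0.047 at d50 and -0.0013 at d65), KRT15 at gallbladder d100 (-0.0012), and KRT14 (-0.18) and KRT23 (1.52) for the difference of gallbladder changes. The other changes of sign came on leaving out 1 library, with these log2 ranges over all such fits. The liver fetal mean ran from -0.18 to 0.92 for KRT5. Liver d50 ran from -0.84 to 0.60 for KRT5, -0.71 to 0.073 for KRT7, -0.063 to 0.27 for KRT8 and -0.17 to 0.74 for KRT18. Liver d65 ran from -2.27 to 1.77 for KRT5 and -0.066 to 0.54 for KRT8. Liver d80 ran from -3.22 to 0.40 for KRT5. Liver d100 ran from -0.46 to 0.60 for KRT19. Liver d120 ran from -0.026 to 0.017 for KRT8, -0.37 to 0.16 for KRT18 and -0.027 to 0.89 for KRT19. The liver end of gestation ran from -0.27 to 1.36 for KRT18. The difference of liver changes from d50 ran from -1.66 to 0.95 for KRT5, -0.25 to 0.020 for KRT8 and -0.71 to 0.061 for KRT19. The liver change to the end ran from -0.15 to 1.46 for KRT18. The gallbladder mean ran from -0.14 to 5.40 for KRT23. Gallbladder d100 ran from -0.42 to 0.069 for KRT8, -0.31 to 0.30 for KRT15, -0.38 to 0.021 for KRT17 and -0.47 to 0.037 for KRT19. Gallbladder d120 ran from -1.11 to 9.97 for KRT23. WT gallbladder birth ran from -0.27 to 0.43 for KRT15 and -0.29 to 5.04 for KRT23. CF gallbladder after d80 ran from -2.65 to 2.00 for KRT5 and -0.46 to 1.09 for KRT23. The difference of gallbladder changes ran from -1.12 to 3.52 for KRT5, -1.07 to 0.085 for KRT7, -0.86 to 3.09 for KRT14, -5.57 to 0.053 for KRT17 and -1.94 to 9.14 for KRT23.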
